A study of Mus musculus with 6 samples.

Results

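Cytochrome c oxidase isoforms, 9 genes listed by symbol, were followed through sorted mouse cardiomyocyte preparations. They were the muscle isoforms Cox6a2, Cox7a1 and Cox8b, their ubiquitous paralogs Cox6a1, Cox7a2 and Cox8a, the pair Cox4i1 and Cox4i2, and Cox7a2l. All 9 were found among the 23404 genes of the table, and all 9 passed the filter on low values. Messenger RNA had been sequenced from 2 sub-populations of C57BL/6J cardiomyocytes, separated by autofluorescence, read as FITC, and by scattered light in the forward direction (FSC), which increases with the size of a particle. FITChigh particles were bright in FITC and dim in FSC, and FITCdim particles were dim in FITC and bright in FSC, with 3 libraries of each. Apart from the gate, both groups share strain and labelled cell type. No treatment, genetic change, age or sex is given for either, and whether animals were pooled is not stated in the sources used here. The libraries of a gate are biological replicates by the series text, and its title gives the aim as the isolation of purified ventricular cardiomyocytes. Setting the gates side by side asks which isoforms of the enzyme each of them carried.

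Cytochrome c oxidase is complex IV of the mitochondrial respiratory chain, and it passes electrons from cytochrome c to oxygen. Its catalytic core is encoded by mitochondrial DNA, and nuclear genes supply the surrounding subunits, some of which exist as alternative isoforms. In the adult rodent heart, subunits 6A, 7A and 8 occur largely in their muscle forms, while most other tissues use the ubiquitous forms. Subunit 4 isoform 1 is the general form, and isoform 2 is best known from lung and from oxygen-responsive expression. Cox7a2l is a relative of the 7A subunits that takes part in joining complexes III and IV into supercomplexes, and C57BL/6J mice are known to carry an allele of it that encodes a shortened protein.

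Promoter sequences are shown because those of the muscle genes Cox7a1 and Cox8b held fewer CpG dinucleotides than those of the ubiquitous paralogs. The choice of genes did not use that feature. RefSeq sequences (build GRCm38.p6, the assembly also called mm10) were matched by symbol for 6 of the 9 genes, and each covers 250 bases before to 50 bases after the annotated start. Not matched were Cox6a2, Cox4i1 and Cox4i2. The promoters of the paralog pairs are printed, 5′ to 3′. Capitals mark the letters of an E-box (CANNTG), an ERR half-site (AAGGTCA), an NRF1 motif (GCGCA and GCGC with 1 base between them), an ETS motif (CCGGAAG), a MEF2 motif (CTA and TAG with 4 bases between them) or a YY1 motif (AAGATGG), each searched on both strands. No 2 motifs overlapped in these windows.
Cox7a1 (chr7:30183921-30184220, + strand): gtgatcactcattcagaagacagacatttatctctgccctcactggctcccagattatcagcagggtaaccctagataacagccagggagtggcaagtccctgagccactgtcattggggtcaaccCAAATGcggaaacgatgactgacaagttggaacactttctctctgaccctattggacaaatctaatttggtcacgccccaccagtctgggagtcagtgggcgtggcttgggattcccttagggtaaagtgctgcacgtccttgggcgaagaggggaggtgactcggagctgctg
Cox8b (chr7:140900397-140900696, - strand): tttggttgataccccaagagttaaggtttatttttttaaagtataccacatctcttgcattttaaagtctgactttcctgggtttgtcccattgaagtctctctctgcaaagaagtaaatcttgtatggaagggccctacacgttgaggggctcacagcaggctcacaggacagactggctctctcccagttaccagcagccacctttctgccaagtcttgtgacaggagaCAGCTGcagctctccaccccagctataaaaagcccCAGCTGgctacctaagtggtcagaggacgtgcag
Cox6a1 (chr5:115348909-115349208, - strand): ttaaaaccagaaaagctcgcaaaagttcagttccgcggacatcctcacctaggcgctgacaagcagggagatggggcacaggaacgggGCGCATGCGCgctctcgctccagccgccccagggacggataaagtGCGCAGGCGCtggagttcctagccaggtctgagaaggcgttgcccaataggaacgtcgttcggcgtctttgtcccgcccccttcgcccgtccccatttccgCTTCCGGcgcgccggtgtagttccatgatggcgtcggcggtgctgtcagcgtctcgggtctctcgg
Cox7a2 (chr9:79759804-79760103, - strand): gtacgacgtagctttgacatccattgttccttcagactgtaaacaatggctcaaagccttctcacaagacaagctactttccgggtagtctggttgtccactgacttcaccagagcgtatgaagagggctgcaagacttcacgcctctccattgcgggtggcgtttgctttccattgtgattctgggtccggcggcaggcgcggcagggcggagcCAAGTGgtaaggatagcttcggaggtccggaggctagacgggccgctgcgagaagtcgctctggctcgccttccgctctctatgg
Cox8a (chr19:7217567-7217866, - strand): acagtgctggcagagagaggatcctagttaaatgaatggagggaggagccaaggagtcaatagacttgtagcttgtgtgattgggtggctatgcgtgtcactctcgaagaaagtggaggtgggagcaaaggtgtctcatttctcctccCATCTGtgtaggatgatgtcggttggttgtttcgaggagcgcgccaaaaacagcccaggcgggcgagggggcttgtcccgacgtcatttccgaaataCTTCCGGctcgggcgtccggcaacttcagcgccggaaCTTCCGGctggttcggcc

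The muscle gene promoters held 7 CpG dinucleotides in Cox7a1 and 2 in Cox8b, and those of the ubiquitous paralogs 32 in Cox6a1, 20 in Cox7a2 and 19 in Cox8a. The promoter of Cox7a2l held 19. Among 32851 promoter windows of this length the median was 7. Of these windows, 47.9% held fewer CpG than Cox7a1 and 14.1% fewer than Cox8b, against 90.5% for Cox6a1, 73.5% for Cox7a2 and 71.9% for Cox8a. An E-box was present once in Cox7a1, Cox7a2, Cox7a2l and Cox8a and 2 times in Cox8b, where both read CAGCTG. It is a frequent motif, held by 72.3% of all windows. The NRF1 motif, found in 4.6% of windows, occurred 2 times in Cox6a1. The ETS motif, found in 8.86%, occurred once in Cox6a1 and 2 times in Cox8a. No ERR half-site (4.72% of windows), MEF2 motif (3.69%) or YY1 motif (6.34%) matched these letters in the 6 windows. A match describes letters only, and occupancy was not measured.

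Levels are the deposited values, read counts adjusted by the authors to a common library size, called adjusted read counts here. The reads behind each value could be recovered, and numbered 1589825 to 2931045 per library in FITChigh and 1705626 to 3345994 in FITCdim. The 15 cardiomyocyte markers were all detected. Their summed level was 452609 to 485822 in the FITChigh libraries and 298570 to 351218 in the FITCdim libraries. Across 12907 genes tested, 324 (2.51%) were higher and 1748 (13.5%) lower in FITChigh, so higher genes made up 15.6% of the calls. Leaving out FITChigh replicate 1 gave 67 higher genes, FITChigh replicate 2 gave 184, FITCdim replicate 3 gave 215, and FITCdim replicate 1 gave 85 higher and 1156 lower genes. Higher genes made up 1.84% with libraries rescaled to one common total, which moved the log2 fold change of the median gene to -0.20, and 27.8% after quantile normalization, which moved it to 0.13. As deposited, that median was -0.01. Markers of other cells were mostly lower in FITChigh. Of 12 endothelial markers 11 fell in FITChigh, of 8 tested fibroblast markers 8, of 9 leukocyte markers 9, of 7 smooth muscle markers 5, and of 5 tested atrial markers 5. In such mixed samples, fewer cells of a type and less RNA per cell cannot be told apart.

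Within the heart preparations the muscle isoforms led. For comparisons between genes, values were divided by the length of all annotated exons of the gene, in kb, and the ranking below is a description. Cox6a2, the muscle form of subunit 6A, was the highest of the 9, with 15040, 13094 and 9791 adjusted read counts per kb in FITChigh and 4574, 8863 and 7201 in FITCdim. Its lowest library in either gate stood above the highest library of every other member in that gate. By adjusted read counts not divided by length it ranked 22 of the 12907 tested genes in FITChigh and 34 in FITCdim. Cox7a1, the muscle form of subunit 7A, came next at 3939 ± 810 per kb in FITChigh and 2706 ± 498 in FITCdim (SD, n = 3 per gate). Cox8b, the muscle form of subunit 8, stood at 2177 ± 464 per kb in FITChigh and 1868 ± 560 in FITCdim (SD, n = 3 per gate). In FITCdim the values of Cox7a1 and Cox8b overlapped, although Cox7a1 was the higher in each of the 3 libraries.

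Cox4i1 lay beside Cox8b, with 2176 ± 625 per kb in FITChigh and 1668 ± 354 in FITCdim (SD, n = 3 per gate), and the values of both genes overlapped in both gates. Its place depends on the length used, because its exons add up to 1550 bases while its longest annotated transcript has 765. With that transcript it stood at 4408 per kb in FITChigh and 3380 in FITCdim, second after Cox6a2. Cox7a2, at 588 ± 160 per kb in FITChigh and 490 ± 154 in FITCdim, overlapped with Cox7a2l, at 573 ± 35.9 and 450 ± 59.2 in the same gates (SD, n = 3 per gate). Cox8a followed at 365 ± 39.1 in FITChigh and 303 ± 24.9 in FITCdim, and Cox6a1 at 217 ± 33.5 and 175 ± 49.8, with no overlap between those neighbours. Cox4i2 was far below all others, at 4.98 ± 2.22 per kb in FITChigh and 15.0 ± 4.49 in FITCdim (SD, n = 3 per gate). Per kb, the 3 muscle isoforms supplied 94.1% ± 0.633 of the sum over both sets of 3 paralogs in FITChigh and 92.1% ± 1.66 in FITCdim (SD, n = 3 per gate). By pair in FITChigh and FITCdim, Cox6a2 supplied 98.3% ± 0.155 and 97.4% ± 0.795, Cox7a1 87.1% ± 0.802 and 84.9% ± 2.60, and Cox8b 85.4% ± 1.63 and 85.5% ± 3.46 (SD, n = 3 per gate).

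**Figure D1:**
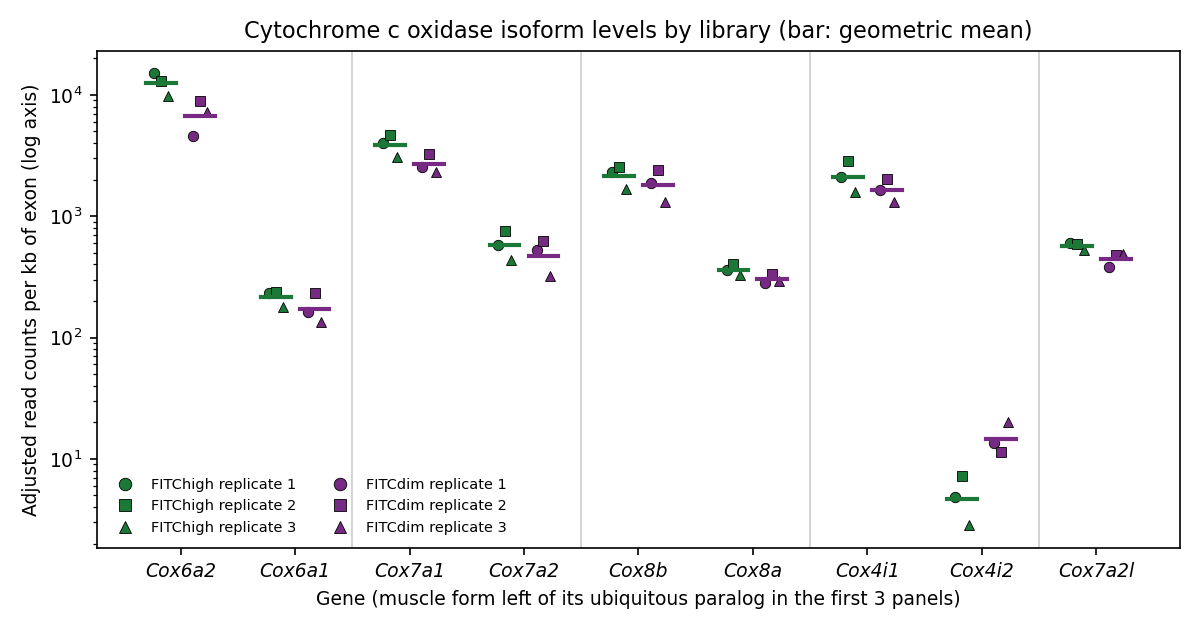
Level of each isoform gene in every library, as adjusted read counts per kb of exon on a log axis, with FITChigh left of FITCdim for each gene and bars at the geometric means. Cox6a2 is the highest gene in both gates, at 9791 to 15040 in FITChigh and 4574 to 8863 in FITCdim, and Cox4i2 the lowest.

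Between the gates, 2 of the 3 muscle isoforms rose in FITChigh, beside 2.51% of all genes tested, and the third did not pass the test. Cox6a2 had 10227, 8904 and 6658 adjusted read counts in FITChigh libraries 1, 2 and 3, against 3110, 6027 and 4897 in FITCdim libraries 1, 2 and 3. All FITChigh libraries lay above all FITCdim libraries, and the lowest value of all was FITCdim library 1. The log2 fold change was 0.91 (SE 0.22), a 1.88-fold higher level, with an adjusted p of 0.0098 by limma-trend over all genes. Without FITChigh replicate 1 the log2 fold change was 0.77 (adjusted p = 0.067), and without FITCdim replicate 1 it was 0.64 (adjusted p = 0.089). After quantile normalization it was 0.49 (adjusted p = 0.1), which is 0.36 above the median gene, against 0.91 above it as deposited. Over 15 alternatives the adjusted p ran from 0.0012 to 0.1. FITCdim library 1, the lowest for Cox6a2, also had the lowest sum of cardiomyocyte markers (298570) and the highest sums of endothelial (11013), fibroblast (1115) and leukocyte markers (1038), and their part in the result was not tested. The gene lies on chromosome 7 from 128205435 to 128206387 in mm10 and overlaps Itgad on the opposite strand, which had 0 recovered reads in FITChigh and 1 in FITCdim.

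Cox7a1 (chromosome 7, 30184144 to 30186078) had 2154, 2515 and 1652 adjusted read counts in FITChigh, against 1358, 1747 and 1238 in FITCdim. The gates overlapped, since FITChigh library 3 was below FITCdim library 2. The log2 fold change was 0.54 (SE 0.17, adjusted p = 0.041 by limma-trend). That call was close to the threshold of 0.05. It was lost without FITChigh replicate 1 (adjusted p = 0.14), FITChigh replicate 2 (0.16), FITCdim replicate 1 (0.17) or FITCdim replicate 3 (0.17), on rescaling to one common total (0.19) and after quantile normalization (0.3). Over 15 alternatives the adjusted p ran from 0.00025 to 0.3.

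Cox8b (chromosome 7, 140898945 to 140900446) had 830, 923 and 598 adjusted read counts in FITChigh, against 677, 872 and 469 in FITCdim. The gates overlapped nearly throughout. The test gave a log2 fold change of 0.24 (SE 0.20), not past the threshold (adjusted p = 0.48 by limma-trend). Over 15 alternatives the log2 fold change ran from 0.005 to 0.452 and the adjusted p from 0.061 to 0.99. The lowest p came from a limma-trend fit with a block for the tag in the library titles (unadjusted p = 0.015, adjusted p = 0.061).

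None of the 3 ubiquitous paralogs passed limma-trend, and at an unadjusted p under 0.05 the count was also 0, as it was in limma-voom on recovered reads. Among all 12907 genes tested, 3576 had an unadjusted limma-trend p under 0.05. Cox6a1, the ubiquitous form of subunit 6A (chromosome 5, 115345642 to 115348981), had 163, 168 and 125 adjusted read counts in FITChigh, against 113, 162 and 94.1 in FITCdim (log2 fold change 0.33, SE 0.20, adjusted p = 0.31). Cox7a2, the ubiquitous form of subunit 7A (chromosome 9, 79755361 to 79759878), had 544, 711 and 410 in FITChigh, against 496, 589 and 303 in FITCdim (log2 fold change 0.28, SE 0.22, adjusted p = 0.46). Cox8a, the ubiquitous form of subunit 8 (chromosome 19, 7215153 to 7217616), had 224, 251 and 203 in FITChigh, against 175, 205 and 183 in FITCdim (log2 fold change 0.26, SE 0.15, adjusted p = 0.26). In each of these genes the gates overlapped, with all 3 log2 fold changes above 0. A limma-trend fit with a block for the tag in the library titles, whose meaning is not given, differed. There the unadjusted p was 0.025 for Cox6a1, 0.0087 for Cox7a2 and 0.027 for Cox8a. Of these, Cox7a2 passed (adjusted p = 0.039), and Cox6a1 (0.086) and Cox8a (0.092) did not.

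Cox4i1, the general isoform of subunit 4 (chromosome 8, 120668222 to 120674207), had 3247, 4398 and 2471 adjusted read counts in FITChigh, against 2566, 3144 and 2047 in FITCdim. The gates overlapped, and a log2 fold change of 0.37 (SE 0.20) was not past the threshold (adjusted p = 0.25 by limma-trend). Cox7a2l, the supercomplex factor (chromosome 17, 83501918 to 83517330), had 882, 871 and 785 in FITChigh, against 564, 709 and 722 in FITCdim. The gates did not overlap, yet at a log2 fold change of 0.36 (SE 0.14) it missed the threshold too (adjusted p = 0.091 by limma-trend). With the block for the title tag, limma-trend called both Cox4i1 (adjusted p = 0.0047) and Cox7a2l (0.018) higher.

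Cox4i2, the oxygen-responsive isoform of subunit 4 (chromosome 2, 152754173 to 152765037), was the 1 member that fell. It had 3.82, 5.73 and 2.24 adjusted read counts in FITChigh, against 10.7, 8.92 and 15.7 in FITCdim, with every FITChigh library below every FITCdim library. These values rest on few reads, 4, 4 and 3 in FITChigh and 18, 7 and 14 in FITCdim. Over each gate, 11 reads of 7064664 stood against 39 of 6904125, a ratio of 0.276 with an exact 95% counting interval of 0.127 to 0.549, which covers counting error alone. The log2 fold change on the log2(value + 1) scale was -1.40 (SE 0.43, adjusted p = 0.035 by limma-trend). It kept its call without FITChigh replicate 2 (adjusted p = 0.025) and lost it without FITChigh replicate 1 (0.079), FITChigh replicate 3 (0.11), FITCdim replicate 1 (0.094), FITCdim replicate 2 (0.051) or FITCdim replicate 3 (0.14). After quantile normalization the adjusted p was 0.24, and over 14 alternatives it ran from 0.015 to 0.24.

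Of the 9 genes, then, 2 were higher and 1 lower by the test, beside 2.51% higher, 13.5% lower and 16.1% either among all genes tested. Cox6a2 and Cox7a2l had all FITChigh libraries above all FITCdim libraries and Cox4i2 had them all below, beside 11.4% and 20.2% of all genes tested. The median log2 fold change of the 9 was 0.33, beside -0.01 over all genes tested. After rescaling it stood 0.33 above the median of all genes, and after quantile normalization 0.04 above it. There Cox8b, at -0.05, and Cox4i1, at -0.06, lay below the median gene. Of 1468 windows of 75 bases in Cox7a2l transcripts, 10.4% also occur in the annotated transcripts of Gm6969, as do 4.61% of those of Cox4i1 in Emc8, which overlaps it on the opposite strand, and 4.58% of those of Cox6a1 in another annotated gene. Reads from such stretches may have been divided or dropped by the authors' counting, whose use of strand is not given in the sources used here. The other 6 members shared no such window with another annotated gene.

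**Figure D2:**
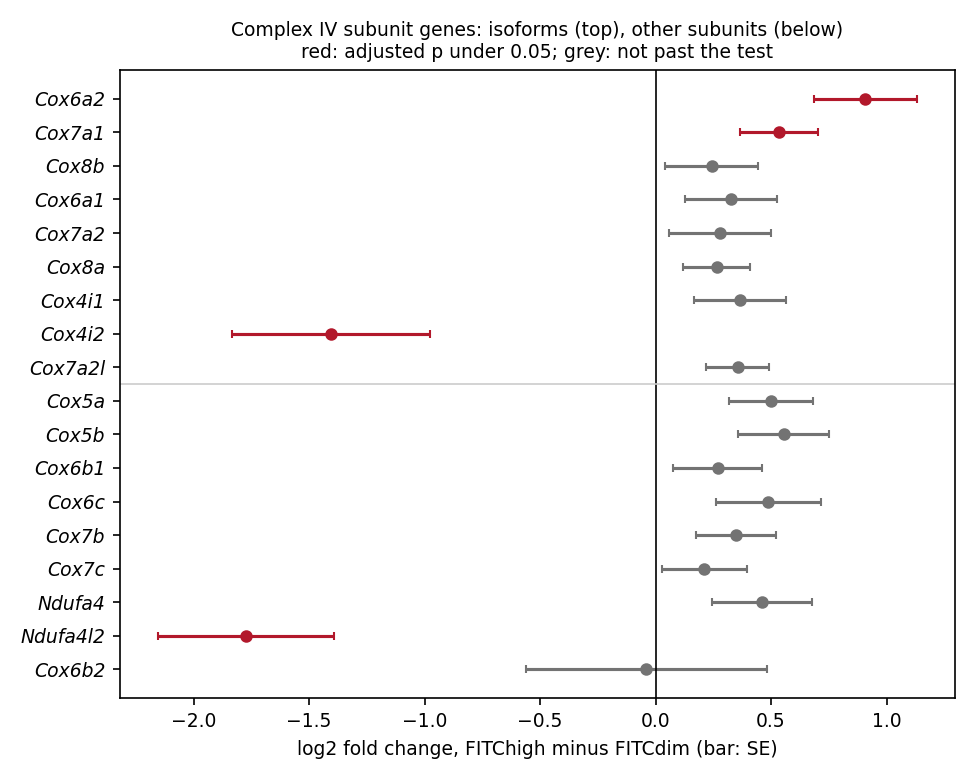
Log2 fold change of FITChigh minus FITCdim with its SE for the isoform genes (above the grey line) and the other nuclear complex IV subunit genes tested (below it), in red where the adjusted p was under 0.05. Cox6a2 at 0.91 and Cox7a1 at 0.54 lie to the right in red, and Cox4i2 at -1.40 and Ndufa4l2 at -1.77 to the left.

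Isoform ratios were formed within each library, as (value + 1) over (value + 1). A common scaling of a library then cancels closely for high values, but not fully for the low values of Cox4i2. There were 4 ratios, each tested two-sided by exact permutation, over the 20 ways to assign libraries to gates. The smallest p this allows is 0.1, so no ratio could reach 0.05, and the values carry the description. The ratio of Cox6a2 to Cox6a1 was 62.2, 52.7 and 52.8 in FITChigh libraries 1, 2 and 3, against 27.2, 37.0 and 51.5 in FITCdim libraries 1, 2 and 3. The gates did not overlap, though FITCdim library 3 came close to the lower FITChigh libraries. The ratio was 1.5-fold higher in FITChigh (log2 difference 0.58, SE 0.28, exact permutation p = 0.1, adjusted over the 4 ratios 0.2). The log2 difference was 0.35 without FITCdim replicate 1, and 0.17 (exact p = 0.6) after quantile normalization, which does not cancel in a ratio.

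The ratio of Cox7a1 to Cox7a2 was 3.95, 3.53 and 4.02 in FITChigh, against 2.74, 2.96 and 4.07 in FITCdim. FITCdim library 3 had the highest ratio of all 6, and the gates overlapped. The log2 difference was 0.26 (SE 0.19, exact permutation p = 0.4, adjusted over the 4 ratios 0.533). It was 0.43 without FITCdim replicate 3, 0.14 without FITCdim replicate 1 and 0.07 after quantile normalization.

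For Cox8b to Cox8a the ratio was 3.69, 3.67 and 2.94 in FITChigh, against 3.84, 4.24 and 2.56 in FITCdim. Library 3 was the lowest of each gate and the highest and lowest ratios were both in FITCdim. The log2 difference was -0.02 (SE 0.25, exact permutation p = 0.9, adjusted over the 4 ratios 0.9), and it changed sign with 1 library left out (0.12 without FITCdim replicate 2, for example).

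The ratio of Cox4i1 to Cox4i2 was 674, 654 and 764 in FITChigh, against 219, 317 and 122 in FITCdim. The gates did not overlap, and the FITCdim libraries spread more widely. The ratio was 3.41-fold higher in FITChigh (log2 difference 1.77, SE 0.41, exact permutation p = 0.1, adjusted over the 4 ratios 0.2). With a pseudocount of 5 the log2 difference was 1.27, and after quantile normalization 0.87.

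**Figure D3:**
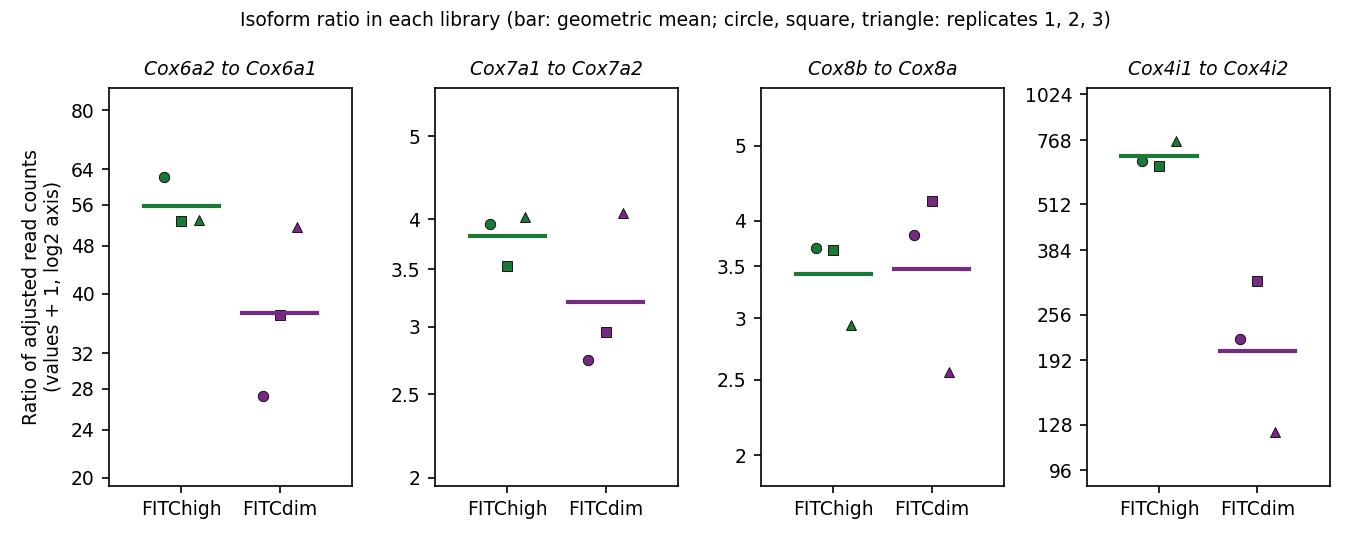
Ratio of each isoform pair in every library on log2 axes, with FITChigh left of FITCdim and bars at the geometric means. The Cox6a2 to Cox6a1 ratio is 52.7 to 62.2 in FITChigh and 27.2 to 51.5 in FITCdim, the Cox4i1 to Cox4i2 ratio 654 to 764 and 122 to 317, and the other 2 ratios overlap.

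Inside a gate the isoform genes did not all follow the same libraries. Deviations were taken on the log2(value + 1) scale from the mean of each gate. In FITChigh, library 3 was below the gate mean in all 9 genes. In FITCdim, library 3 was the lowest for Cox7a2 (deviation -0.55), Cox8b (-0.47), Cox6a1 (-0.35), Cox4i1 (-0.32) and Cox7a1 (-0.21). Cox6a2 differed there, with library 1 lowest at -0.54 and library 3 at 0.12. Cox7a2l was likewise lowest in library 1, at -0.23, with 0.13 in library 3. So was Cox8a, by a small margin, at -0.09 in library 1 and -0.04 in library 3. Cox4i2 was highest in FITCdim library 3, at 0.42. Over 15 complex IV subunit genes with a mean of at least 50, FITChigh library 3 was below its gate mean in 15 and FITCdim library 3 in 13, with median deviations of -0.33 and -0.35. The median deviation of all tested genes in those libraries was 0.01 in FITChigh library 3 and -0.01 in FITCdim library 3.

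**Figure D4:**
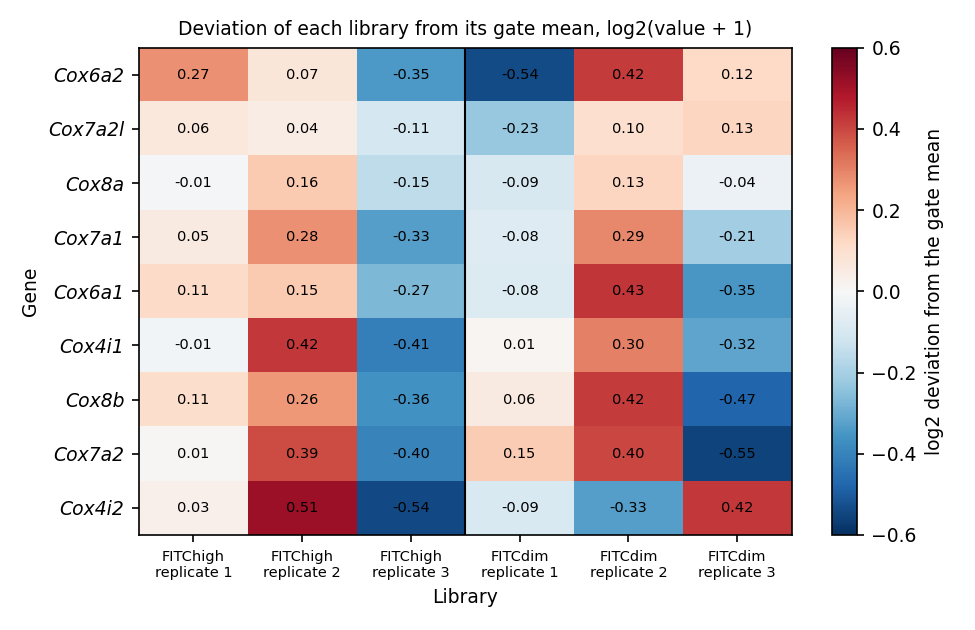
Deviation of each library from the mean of its gate on the log2(value + 1) scale, with genes in rows, FITChigh libraries left of FITCdim libraries, and values printed in the cells. Library 3 is low for all 9 genes in FITChigh, while in FITCdim Cox6a2 is lowest in library 1, at -0.54.

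Set against the myocyte markers of each library, 7 of the 9 members averaged lower in FITChigh and Cox6a2 higher, while Cox7a1 was nearly equal in both gates. Members were expressed per 1000 adjusted read counts of the summed 15 cardiomyocyte markers, a scaling chosen after the data were seen. Of these markers 1 rose, Tnni3, a troponin of heart muscle, and 14 did not pass limma-trend, with a median log2 fold change of 0.46, and limma-voom called 9 higher. After quantile normalization that median was 0, against 0.13 for all genes. Myh6, the alpha myosin heavy chain of heart muscle, is part of that sum, at 159480 ± 13528 in FITChigh and 96706 ± 23944 in FITCdim (adjusted read counts, mean ± SD, n = 3 each). On this scale Cox6a2 stood at 21.1, 18.5 and 14.7 in FITChigh, against 10.4, 17.8 and 13.9 in FITCdim, and the gates overlapped. Cox7a1 averaged 4.44 ± 0.792 in FITChigh and 4.41 ± 0.824 in FITCdim, and Cox8b 1.65 ± 0.304 and 2.06 ± 0.645 (SD, n = 3 per gate). The direction turned for Cox8b, Cox6a1, Cox7a2, Cox8a, Cox4i1 and Cox7a2l. Of these, Cox7a2l showed no overlap, at 1.82, 1.81 and 1.74 in FITChigh against 1.89, 2.09 and 2.05 in FITCdim. Cox4i2 stayed below FITCdim in every FITChigh library. The marker sum used as divisor was itself higher in every FITChigh library than in any FITCdim library. How many of all genes lack overlap on this scale was not computed. Differences on this scale were not tested.

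Of 11 other nuclear subunit genes of complex IV, 9 were tested, 0 rose, 1 fell and 8 did not pass limma-trend, beside 2.51% higher and 13.5% lower among all genes tested. Their median log2 fold change was 0.35, beside -0.01 over all genes tested, and after quantile normalization 0.22, beside 0.13. At an unadjusted p under 0.05 there were 5 of the 9, beside 3576 of all 12907 genes tested, and limma-voom called 1 higher and 1 lower. Cox6c, the subunit gene with the highest mean, had 1657, 2277 and 1241 adjusted read counts in FITChigh, against 1336, 1565 and 809 in FITCdim (log2 fold change 0.49, SE 0.23, adjusted p = 0.18). The one that fell was Ndufa4l2, a hypoxia-inducible relative of the subunit gene Ndufa4, with 6.71, 7.32 and 2.95 in FITChigh against 20.6, 18.7 and 22.7 in FITCdim. Its log2 fold change was -1.77 (SE 0.38, adjusted p = 0.0039 by limma-trend), while Ndufa4 itself stood at 0.46 (SE 0.22, adjusted p = 0.18). Cox8c, a testis form of subunit 8, was listed at 0 in every library, and Cox7b2 and Cox6b2, testis forms as well, had at most 1.34 and 3.6 adjusted read counts.

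Of 9 tested subunits of complex III, which passes electrons to cytochrome c, 5 rose and 4 did not pass, beside 2.51% higher among all genes tested, with a median log2 fold change of 0.51 for the 9. The rises numbered 1 after rescaling to one common total and 0 after quantile normalization, where the median stood 0.12 above that of all genes. The largest rises past the test were those of Uqcr11 at 0.69 (SE 0.19, adjusted p = 0.018), Uqcrb at 0.69 (SE 0.17, adjusted p = 0.0078) and Uqcrq at 0.65 (SE 0.19, adjusted p = 0.025), all small subunits. Uqcrc1, a core protein with the highest mean of the list, rose by 0.49 (adjusted p = 0.043). Cycs, the cytochrome c gene that feeds complex IV, had 1359, 1690 and 1252 adjusted read counts in FITChigh against 812, 971 and 814 in FITCdim, without overlap (log2 fold change 0.72, SE 0.14, adjusted p = 0.0021), and it passed under both other scalings as well (adjusted p = 0.013 rescaled and 0.02 after quantile normalization). Of 24 tested genes listed with the assembly of complex IV, 2 rose and 22 did not pass, beside the same 2.51%. Cox17, a copper chaperone, rose by 0.84 (adjusted p = 0.0041 by limma-trend). Cox20, a chaperone of the COX2 subunit, rose by 0.67 (adjusted p = 0.0062 by limma-trend). Both passed after rescaling (adjusted p = 0.019 and 0.048) and after quantile normalization (0.0043 and 0.0082). Fastk, which is not an established assembly factor, had the highest mean of that list and stood at 0.18 (adjusted p = 0.37 by limma-trend).

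Other genes of muscle energy metabolism gave a comparison for the muscle isoforms. Of 8 such genes, 3 rose and 5 did not pass, beside 2.51% higher among all genes tested, with Ckmt2, the mitochondrial creatine kinase, at 0.70 (adjusted p = 0.0089), Fabp3, a fatty acid carrier, at 0.59 (adjusted p = 0.033) and Pgam2, a muscle phosphoglycerate mutase, at 0.49 (adjusted p = 0.047). After rescaling 1 of the 8 passed, Ckmt2 (adjusted p = 0.037), and after quantile normalization 0 did, with a median log2 fold change of 0.13, equal to that of all genes. Mb, which encodes myoglobin and has the highest mean of them, stood at 0.58 (SE 0.25, adjusted p = 0.13). Of 10 regulators of muscle and mitochondrial genes, Esrra, the estrogen-related receptor alpha, rose by 0.47 (SE 0.13, adjusted p = 0.023) and 9 did not pass. Its call was lost after rescaling (adjusted p = 0.21) and quantile normalization (0.073). Ppargc1a, the coactivator with the highest mean of that list, stood at 0.35 (adjusted p = 0.21). Of 5 genes listed with the oxygen response of Cox4i2, limma-trend and limma-voom on recovered reads each called 0. At an unadjusted limma-trend p under 0.05 there was 1, beside 3576 of all 12907 genes tested. That one was Lonp1, a mitochondrial protease, at 0.40 (SE 0.13, adjusted p = 0.055), and Hif1a, a subunit of hypoxia-inducible factor, stood at 0.02 (adjusted p = 0.96).

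Cox4i2 is also known as a marker of pericytes, the contractile cells around capillaries, and it was lower in the same gate as most of their genes. Of 10 pericyte markers, Ndufa4l2 among them, 9 fell in FITChigh, beside 13.5% of all genes tested, with a median log2 fold change of -2.37. Rgs5, a G protein regulator of pericytes, had 29.6, 33.7 and 35.2 adjusted read counts in FITChigh against 310, 198 and 241 in FITCdim (log2 fold change -2.87, SE 0.19, adjusted p = 7.3e-08). Kcnj8, a potassium channel subunit of pericytes, had 6.65, 9.07 and 8.80 against 47.5, 30.3 and 41.0 in the same gates (log2 fold change -2.13, SE 0.31, adjusted p = 0.00013). Higd1b, a further marker of these cells, had 1 or fewer adjusted read counts in each FITChigh library against 7.49, 5.08 and 5.74 in FITCdim. Abcc9, which myocytes also express, did not pass (0.10, adjusted p = 0.78) and makes up most of the list, whose sum was 1066 to 1593 in FITChigh and 1445 to 2044 in FITCdim. Within FITCdim, Cox4i2 was highest in library 3, as were Ndufa4l2, Notch3 and Abcc9 of the pericyte list. Of the rest of that list, Colec11 was highest in library 2, and Rgs5, Kcnj8, Higd1b, Pdgfrb, Cspg4 and Vtn in library 1. Endothelial markers summed to 4276 to 4629 in FITChigh and 9201 to 11013 in FITCdim, smooth muscle markers to 849 to 959 and 1154 to 1367 in the same gates, fibroblast markers to 113 to 141 and 606 to 1115, and leukocyte markers to 90 to 125 and 452 to 1038. Cd36 had a mean of 3430 in FITChigh, most of the endothelial sum there, and did not pass limma-trend. Smtn (564) and Acta2 (304) made up most of the smooth muscle sum in FITChigh, and neither passed. Over single genes the median log2 fold change was -2.66 in the endothelial and -2.48 in the smooth muscle list. Pecam1 of endothelium had a log2 fold change of -2.70, Col1a1 of fibroblasts -2.62 and Ptprc of leukocytes -2.34. The part of these cells in the difference of Cox4i2 was not tested.

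Muscle isoforms are also expressed by brown fat and skeletal muscle. Of 6 brown adipocyte markers, Ucp1, Adipoq and Elovl3 were listed at 0 in every library, and 2 of the 6 were tested, with log2 fold changes of opposite sign and a median of -0.34. Cebpa, a transcription factor of fat cells, had 1.94, 0.06 and 0 adjusted read counts in FITChigh against 2.4, 2.49 and 2.3 in FITCdim, without overlap, and did not pass (log2 fold change -1.22, SE 0.58, adjusted p = 0.19). Cidea, a lipid droplet protein, makes up most of the list's sum and rose, with 162, 183 and 135 adjusted read counts in FITChigh against 99.5, 105 and 123 in FITCdim (log2 fold change 0.54, SE 0.17, adjusted p = 0.036). That call was lost after rescaling (adjusted p = 0.2) and kept after quantile normalization (0.04). The 8 skeletal muscle markers summed to 8.56 to 12.2 in FITChigh and 8.59 to 14.6 in FITCdim. Of 3 tested, limma-trend and limma-voom called 0. At an unadjusted p under 0.05 there were 0 as well, beside 3576 of all 12907 genes tested. Of 3 red blood cell genes in the table none passed the filter, and all 3 were listed at 0 in FITChigh.

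**Figure D5:**
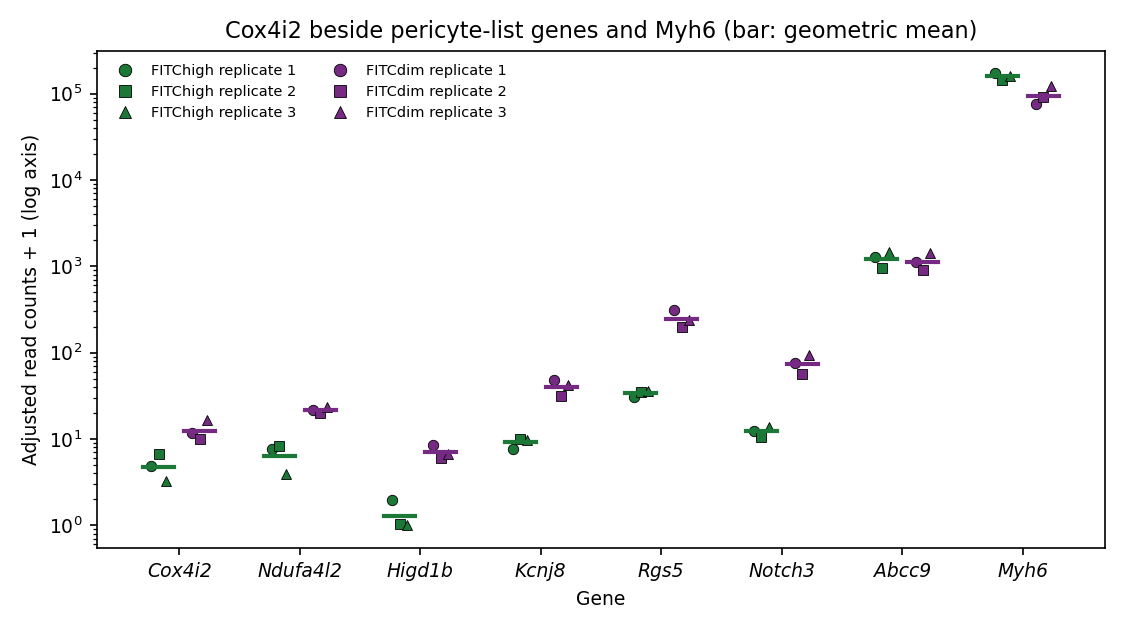
Adjusted read counts + 1 on a log axis for Cox4i2, pericyte-list genes and Myh6 in every library, with FITChigh left of FITCdim and bars at the geometric means. Cox4i2, at 2.24 to 5.73 in FITChigh and 8.92 to 15.7 in FITCdim, lies below FITCdim like Ndufa4l2, Higd1b, Kcnj8, Rgs5 and Notch3, while Abcc9 overlaps and Myh6 is above.

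Genes with the most similar pattern were sought by Pearson r of log2(value + 1) over the 6 libraries, among tested genes with a mean of at least 10. The r includes the difference between the gates and is given as a description. Genes picked for likeness to Cox6a2 or Cox4i2 therefore tend to share that difference, and their p-values add no separate evidence. For Cox6a2 they were Utp6 (0.991), Ndufa12 (0.989), Trim72 (0.988), Fbxw4 (0.987) and Ndufb10 (0.987), of 9499 candidates. Ndufa12 and Ndufb10 encode subunits of complex I, and Trim72 a membrane repair protein of muscle. These 3 rose, by 0.57, 0.66 and 0.52 on the log2 scale (adjusted p = 0.019, 0.014 and 0.022). For Cox8b they were Hsp90ab1 (0.994), Mrpl54 (0.991), Ndufa11 (0.987), Rpp30 (0.984) and Fuom (0.984), none of them past the test. For Cox4i2 they were Adora2a (0.988), Hspa2 (0.984), Klhl4 (0.981), Dagla (0.980) and Hlx (0.978). Adora2a, an adenosine receptor, had a log2 fold change of -1.71 (adjusted p = 0.0079), Klhl4 of -2.11 (0.003) and the transcription factor gene Hlx of -1.91 (0.0047).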

How the data were processed

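Polyadenylated RNA of 6 sorted samples was sequenced as paired 75-base reads with a strand-specific kit, per the labels' protocols. Per the submitters' processing notes, STAR 2.5, edgeR and the build mm10 were used, with roles, settings, counting program and annotation not given in the sources used here. The values deposited by the authors are a signal, read counts brought to one library size, with column totals of 2030583 to 2443707. Of 23410 lines, 6 were garbled and left out.

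Whole reads were recovered by undoing a negative binomial adjustment at a dispersion of 0.0203, and 100% of values came out whole within 0.1 reads. They served depth, intervals and 1 alternative test. Depth limits precision, and intervals cover counting error alone, because PCR copies without identifiers may count a molecule more than once.

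Genes reaching 1 in 3 or more libraries were tested on the log2(value + 1) scale by limma-trend (limma 3.58.1, R 4.3.3, two-sided, no block), FITChigh minus FITCdim, Benjamini-Hochberg over 12907 genes at 0.05. Fold changes on this scale understate those of low genes. Isoform ratios were tested by exact permutation over libraries. Replicates are numbered in accession order, and libraries of a gate differed by more than sampling noise (chi-square over degrees of freedom 3.87 to 6.60). Where libraries are not from separate animals, p-values measure only the spread between them. Exon lengths and positions are from GENCODE M21. The fit was also run on simulated data, in which equal numbers of genes were raised and lowered. No changed gene there was as low as Cox4i2, so the simulation does not cover it.

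Members and gene lists were chosen with earlier results of these data known. Named genes are all members, every other complex IV subunit gene past the test, the member of each list with the highest mean and up to 3 past the test with the largest change (not reported for every list), the 5 genes most alike to Cox6a2, Cox8b and Cox4i2, and Myh6, Pecam1, Rgs5, Kcnj8, Col1a1 and Ptprc. Any other gene was chosen after its values were seen. Alternatives covered the pseudocount, the filter, the scaling, robust and blocked fits, recovered reads, the gene length and each library left out.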

Additional observations from a re-analysis of the deposited data

How the results depend on the processing

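The count of genes higher in FITChigh was 324. This was 41 with libraries rescaled to one common total and 1064 with the replicate block, and 67 to 337 with 1 library left out. Lower genes numbered 1748, and 1156 to 1667 with a library left out, the fewest without FITCdim replicate 1. Of the 9 members, 2 were higher. This was 1 after rescaling, 0 after quantile normalization, 5 with the replicate block and 0 to 2 with 1 library left out (0 without FITChigh replicate 1 or FITCdim replicate 1). One member, Cox4i2, was lower. This was 0 after quantile normalization, 0 with a filter of at least 10 (Cox4i2 was then not tested) and 0 to 1 with 1 library left out. Fewer libraries also leave fewer degrees of freedom. For the other losses the cause was not tested.

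With 1 library left out, the log2 difference of the Cox8b to Cox8a ratio ran from -0.24 to 0.12 and was reversed in 3 cases, to 0.09 (FITChigh replicate 3 out), 0.05 (FITCdim replicate 1 out) and 0.12 (FITCdim replicate 2 out). Over all 11 alternatives the other ratios kept their direction, from 0.17 to 0.81 for Cox6a2 to Cox6a1, 0.07 to 0.43 for Cox7a1 to Cox7a2 and 0.87 to 2.09 for Cox4i1 to Cox4i2. With the length of the longest annotated transcript, the 3 muscle isoforms supplied 92.7% in FITChigh and 90.3% in FITCdim, and Cox4i1 stood at 4408 and 3380 per kb.

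The titles carry a tag that recurs in both gates, whose meaning is not given. Same-tagged libraries deviated together at r = 0.07, 0.12 and 0.18 across genes, against -0.12 to -0.01 for other pairs. Each library thus correlated best with its own tag, a hint from the data alone. The other pairs are no independent baseline. The deviations of a gate sum to 0 for each gene, so a positive r within a tag draws the other pairs down. With the replicate block, Cox4i1 (adjusted p = 0.0047), Cox7a2l (0.018) and Cox7a2 (0.039) were also called higher. Paired ratios, with a smallest exact p of 0.25, gave 0.25 for Cox6a2 to Cox6a1, 0.5 for Cox7a1 to Cox7a2, 0.75 for Cox8b to Cox8a and 0.25 for Cox4i1 to Cox4i2. A quasi-likelihood count test on recovered reads was not run. In limma-voom, added after seeing the data, 2 members were higher and 1 lower. Depth limits Cox4i2 most, with 11 reads in FITChigh and 39 in FITCdim.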
